A study of Mus musculus with 2 samples.

Results

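Testicular macrophages were described in droplet single-cell RNA libraries of dissociated testes from a Dot1L conditional knockout (cKO) and from control mice. The cKO genotype was Dot1L fl/delta with Ddx4-Cre, and the control genotype was Dot1L fl/+ without Cre. DOT1L is a histone H3 methyltransferase, and Ddx4 is a germ cell gene, so macrophages were not the cells in which the Cre is driven. By the labels, somatic cells of cKO animals still carry a delta allele, a floxed allele and no wild-type allele, while controls carry a floxed and a wild-type allele. The number and age of the animals behind each library and the deleted part of Dot1l are not given in the sources used here. Genotype, animal, dissociation and library preparation cannot be told apart with 1 library per genotype, so no test was made.

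A barcode counted as a macrophage with 500 or more unique molecular identifiers (UMIs, counted RNA molecules), at most 10% mitochondrial UMIs, and 3 or more of 7 marker genes that together made 0.2% or more of its UMIs. The markers were Csf1r, C1qa, C1qb, C1qc, Lyz2, Tyrobp and Fcer1g. The rule was met by 185 of 34349 kept barcodes (of 38009 deposited). These were 150 of 18451 cKO barcodes and 35 of 15898 control barcodes.

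Macrophages are the most common immune cells of the testis and live in the interstitium beside Leydig cells and around the seminiferous tubules. They depend on CSF1 receptor signalling, clear dying cells and make complement C1q; in the rat they release a hydroxylated cholesterol that Leydig cells can use for testosterone. In the mouse, interstitial macrophages are described as CSF1R-high and MHC class II-low, and peritubular ones as MHC class II-high. MHC class II molecules carry peptides to CD4+ T cells.

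The label was checked with 28 macrophage genes that the rule did not use, such as Adgre1 (F4/80), Cd68, Mertk and Cx3cr1. A median of 14 of them was detected per cKO barcode and 16 per control barcode. At least 3 were detected in 138 of 150 cKO barcodes and 32 of 35 control barcodes, and 2 cKO barcodes had none. Adgre1 had a UMI in 51.3% of cKO and 68.6% of control macrophage barcodes, against 1.04% and 0.801% of other barcodes in cKO and control. Lists of other leukocytes are given as CPM summed over the list (CPM, the UMIs of a gene relative to all summed UMIs of the barcodes, on the usual CPM scale). Of the T cell list 5 of 10 genes had a UMI, at 39.0 CPM in cKO and 57.8 CPM in control. In other barcodes it stood at 44.5 CPM in cKO and 32.8 CPM in control. Cd3e, Cd3g and Trac were at 0, and Cd3d had 6 UMIs in cKO and 2 UMIs in control. Cd28 had 8 UMIs in cKO and 4 in control, Cd4 3 in cKO and 5 in control, and Il7r 4 in cKO and 0 in control. In cKO these stood above their CPM in other barcodes, while Cd3d and Trbc2 stood below theirs. Of the NK and innate lymphoid cell list 3 of 10 genes had a UMI, at 12.4 CPM in cKO and 5.26 CPM in control, with Ncr1 and Nkg7 at 0. Of the B cell list 5 of 8 genes had a UMI, at 167 CPM in cKO and 210 CPM in control, most of it from Ighm. Cd79a and Ms4a1 were at 0, while Cd79b had 3 UMIs in cKO and 2 UMIs in control. Csf3r was the 1 of 10 neutrophil genes with a UMI, in 9.33% of cKO macrophage barcodes against 0.126% of other cKO barcodes (14 UMIs in cKO, 2 UMIs in control), and S100a8, S100a9 and Ly6g were at 0. Of the dendritic cell list 8 of 10 genes had a UMI, at 55.0 CPM in cKO and 57.8 CPM in control. In other barcodes the list stood at 12.1 CPM in cKO and 10.3 CPM in control. Irf4 had 10 UMIs in cKO and 2 in control, Batf3 6 in cKO and 5 in control, and Cd209a 5 in cKO and 0 in control. These 3 stood above other barcodes in cKO, while Flt3 and Ccr7 did not. The presence of dendritic cells among members was not tested. Xcr1 and Clec9a of type 1 dendritic cells were at 0. Ly6c2 of classical monocytes was also at 0.

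The 7 rule genes are given as a description only, because they chose the barcodes. All 7 were detected in 77 cKO and 22 control barcodes, and 3 in 11 cKO barcodes and 1 control barcode. C1qa, C1qb and C1qc, the chains of the complement recognition molecule C1q, stood at 1935, 2162 and 1539 CPM in cKO and at 2118, 1966 and 1446 CPM in control. Csf1r, the CSF1 receptor, stood at 498 CPM in cKO and 426 CPM in control. Just inside the threshold, 14 cKO and 2 control members had 0.2% to 0.4% of their UMIs from the rule genes. Just outside it, 13 cKO and 2 control barcodes had 3 or more rule genes but a smaller share, with median depths of 23816 UMIs in cKO and 9358 UMIs in control.

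The 2 libraries held 156518838 UMIs (cKO) and 155487418 UMIs (control), with medians of 2188 and 2383.5 UMIs per barcode in cKO and control. Macrophage barcodes held 563842 UMIs in cKO and 190239 UMIs in control, with medians of 3012 (range 541 to 33598) in cKO and 3326 (range 613 to 27655) in control. Few barcodes carried much of the control sum: 6 cKO members over 10000 UMIs held 21.1% of the cKO macrophage UMIs, and 4 such control members held 48.2% of the control macrophage UMIs. Leaving them out kept 144 cKO and 31 control barcodes. For log2 ratios printed below, the value without them is given where it ended a call, turned a direction or moved a ratio by over 1.5 times. Of the rule genes above, C1qb, C1qc and Csf1r turned to lower in cKO without these members. Their log2 ratios of cKO over control were then -0.22 for C1qb, -0.36 for C1qc and -0.04 for Csf1r (-0.44 to 0.39 for Csf1r). In cKO, these deep members had a median rule gene share of 0.255%, against 1.41% over all members, and in control 0.538% against 1.64%. Their median spermatocyte gene share was 1.03% in cKO, against 0.512% over all members, and 1.29% in control, against 0.389%. Elongating spermatid genes made up to 18.4% of their UMIs in cKO and 19.9% in control, and Leydig cell genes up to 2.22% in cKO. How much of their RNA came from other cells was not tested. The libraries shared 102 barcode sequences, none of them a member in both, and 1 cKO member had a sequence also found in control. Spermatid RNA reached every member: Prm1, the protamine gene of elongating spermatids, stood at 4728 CPM in cKO and 14981 CPM in control macrophages, and at 14415 CPM in cKO and 29572 CPM in control in other barcodes. An estimate of free RNA from summed spermatid genes gave 33.9% of cKO and 52.6% of control macrophage UMIs. It includes the spermatid UMIs of the deep members, so it is not a level shared by all members. The median elongating spermatid share per member was 1.57% in cKO and 2.23% in control. In other barcodes it was 3.78% in cKO and 7.65% in control.

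Macrophages made 0.813% of kept barcodes in cKO (95% exact binomial interval 0.688% to 0.953%) and 0.220% in control (0.153% to 0.306%). The share was 3.69 times as high in cKO (2.54 to 5.50). All intervals here cover counting error only, not variation between animals or libraries. Those for ratios of summed UMIs also leave out variation between barcodes. A share of barcodes also moves with the number of every other cell captured, and a change in macrophage number cannot be told apart from one in the recovery of other cells.

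Macrophages of the cKO library held a large class with little or no MHC class II RNA, which was almost missing from the control library. The 4 core genes H2-Aa, H2-Ab1 and H2-Eb1, which encode chains of the peptide-binding molecules, and Cd74, which encodes their invariant chain, were summed for each barcode. Their summed share of a barcode's UMIs had a median of 0.136% in cKO (range 0% to 5.19%) and 0.842% in control (range 0% to 6.24%). No UMI of any of them was found in 49 of 150 cKO barcodes (32.7%, 25.2% to 40.8%) and in 1 of 35 control barcodes (2.86%, 0.0723% to 14.9%). These cKO barcodes were not shallow, with a median of 3773 UMIs. Their median mitochondrial share was 5.43%, against 4.49% in cKO barcodes with 1.5% or more of their UMIs from the core genes.

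The core genes lie on chromosome 17 in the H2 complex, apart from Cd74. In GRCm38 coordinates, H2-Ab1 spans 34257689 to 34269419 on the plus strand, H2-Aa 34282744 to 34287823 on the minus strand and H2-Eb1 34305867 to 34316674 on the plus strand. For H2-Aa and H2-Eb1, the 150 bases before the start in the RefSeq promoter table (GRCm38.p6) are shown. The motif CTGATTGG (the Y box of MHC class II promoters) is in capitals. H2-Aa lies at chr17:34287824-34287973 on the minus strand, and H2-Eb1 at chr17:34305717-34305866 on the plus strand.
H2-Aa: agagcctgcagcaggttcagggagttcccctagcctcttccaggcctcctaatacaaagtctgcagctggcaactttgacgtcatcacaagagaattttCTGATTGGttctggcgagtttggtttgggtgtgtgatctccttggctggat
H2-Eb1: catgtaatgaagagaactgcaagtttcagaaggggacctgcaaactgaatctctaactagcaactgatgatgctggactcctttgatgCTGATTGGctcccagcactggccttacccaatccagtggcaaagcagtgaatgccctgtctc
The motif began 51 bases before the start of H2-Aa and 62 bases before that of H2-Eb1. It was searched on both strands of the whole promoter windows of the table and was found in 1346 of 32851 promoters of the table (4.097%). Only exact matches to all 8 letters were counted. Of other MHC class II genes, H2-Oa had an exact match, while H2-DMa, H2-DMb1, H2-DMb2 and H2-Ob did not. H2-DMb1, H2-DMb2 and H2-Ob held the motif with its first letter changed, so a missing exact match does not show a missing Y box. The match is a description of these letters and not a measurement of binding.

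The distribution over barcodes had its largest differences below the highest level. Between 0.5% and 1.5% of UMIs from the core genes were found in 11 of 150 cKO barcodes (7.33%, 3.72% to 12.7%) and 11 of 35 control barcodes (31.4%, 16.9% to 49.3%). The highest class, at 1.5% or more, held 51 cKO barcodes (34.0%, 26.5% to 42.2%) and 15 control barcodes (42.9%, 26.3% to 60.6%), and its intervals overlapped. Below 0.1% but above 0 stood 22 cKO barcodes and 1 control barcode. The class limits were set after the levels were seen.

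**Figure D1:**
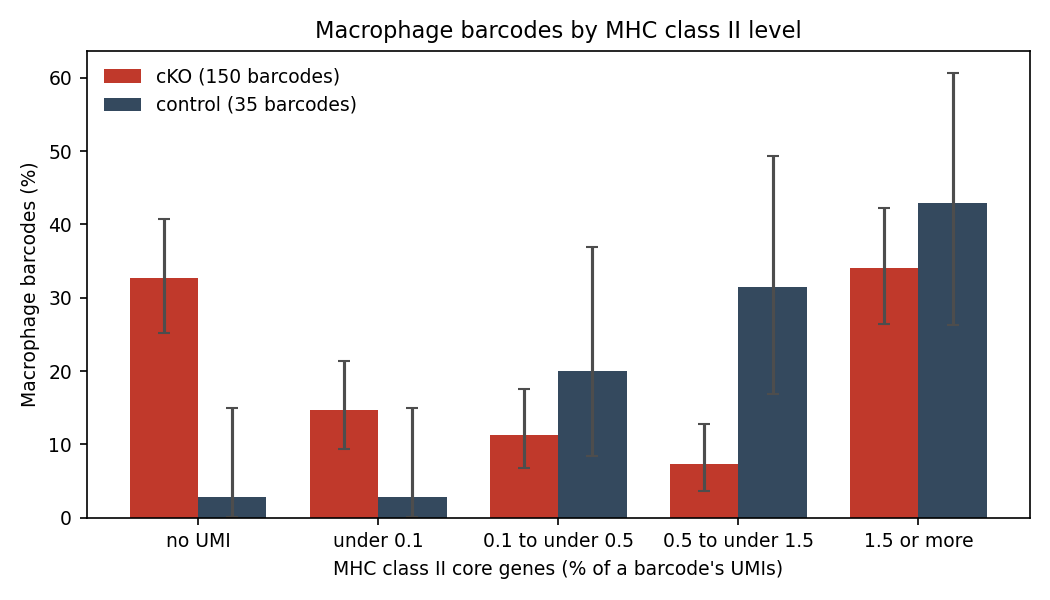
Percent of macrophage barcodes (vertical axis) in 5 classes of the share of UMIs from H2-Aa, H2-Ab1, H2-Eb1 and Cd74 (horizontal axis), for cKO (150 barcodes) and control (35 barcodes); bars carry 95% exact binomial intervals. The class with no UMI holds 32.7% of cKO and 2.86% of control barcodes, while the class at 1.5% or more holds 34.0% and 42.9% in cKO and control.

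Depth did not remove this difference. At least 5 core UMIs were found in 74 of 150 cKO barcodes (49.3%, 41.1% to 57.6%) and 31 of 35 control barcodes (88.6%, 73.3% to 96.8%). After every barcode was thinned to 1000 UMIs, which left out 10 cKO and 6 control barcodes, the shares were 44.3% in cKO (62 of 140) and 75.9% in control (22 of 29). At least 1 core UMI remained in 58.6% of thinned cKO and 89.7% of thinned control macrophages. The background in other barcodes thinned alike was 2.23% in cKO and 2.20% in control, so the 2 libraries had a like low level outside macrophages.

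Summed over all members, the core genes were lower in cKO by a smaller amount. Cd74 had 1728 UMIs (3065 CPM) in cKO and 782 UMIs (4111 CPM) in control, a log2 ratio of cKO over control of -0.42 (95% Poisson interval -0.55 to -0.30). H2-Aa stood at 1359 CPM in cKO and 1877 CPM in control (log2 ratio -0.47), H2-Ab1 at 1321 and 1656 CPM in cKO and control (-0.33), and H2-Eb1 at 1383 and 1708 CPM in cKO and control (-0.30). Without the members over 10000 UMIs the log2 ratios were larger in size, -0.84 for Cd74, -0.78 for H2-Aa, -0.79 for H2-Ab1 and -0.71 for H2-Eb1. H2-DMa and H2-DMb1, which load peptides, had log2 ratios of 0.20 and -0.19 with intervals that spanned 0, and H2-DMa had -0.24 without those members.

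A gene was called higher or lower past a 1.5-fold ratio, among genes with 50 or more UMIs over both libraries. By that rule of size 18.3% of 3107 measured genes were higher and 15.2% lower in cKO, with a median log2 ratio of 0.10. None of the 6 measured MHC class II genes passed it in either direction, and their median log2 ratio was -0.32. Without the members over 10000 UMIs, 4 of 5 measured MHC class II genes were called lower (median -0.78), against 10.2% lower and 21.7% higher of 2057 measured genes (median 0.09). With the mitochondrial limit at 5% (73 cKO and 19 control barcodes) the sign of the summed list turned, to a median of 0.27. The share of barcodes with 5 or more core UMIs stayed lower in cKO at that limit, at 63.0% in cKO (46 of 73) and 94.7% in control (18 of 19).

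MHC class I genes, which serve CD8+ T cells, had a median log2 ratio of -0.31 over 6 measured genes, with 1 called lower and none higher. That gene was Psmb8, an immunoproteasome subunit, at 138 CPM in cKO and 231 CPM in control (log2 ratio -0.74, -1.29 to -0.17). B2m, the light chain of class I molecules, stood at 1185 CPM in cKO and 1036 CPM in control, but its log2 ratio turned to -0.23 without the members over 10000 UMIs. Without them 2 of 5 measured MHC class I genes were called lower and none higher (median -0.57), with Psmb8 at -1.14 and Psmb9, another immunoproteasome subunit, at -0.99. Of 5 measured interferon-response genes none passed the rule with all members (median -0.08), but 2 of 5 were called lower without the deep members (median -0.41). These were Bst2 (tetherin), at -1.04, and Ifi204, at -0.95.

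Barcodes with genes of the interstitial type of resident macrophage and no MHC class II were common in cKO and rare in control. The interstitial core was Mrc1 (mannose receptor), Cd163 (haemoglobin scavenger receptor), Folr2 (folate receptor), Lyve1 and Timd4 (a receptor for dying cells). At least 1 UMI of these was found in 76.7% of cKO and 71.4% of control members, and in 1.68% of cKO and 1.35% of control other barcodes. Interstitial core UMIs with no MHC class II core UMI were found in 42 of 150 cKO barcodes (28.0%, 21.0% to 35.9%) and 1 of 35 control barcodes (2.86%). Thinned to 1000 UMIs, this combination was seen in 31.4% of cKO and 10.3% of control barcodes (2.19% to 27.4% in control). Both cores were present in 48.7% of cKO and 68.6% of control barcodes.

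A group chosen by the interstitial core alone gave the same order of MHC class II levels. Its limit, 0.2% of UMIs, was set after the levels were seen. The 55 cKO barcodes above it had a median MHC class II core share of 0.0227% (range 0% to 3.69%), and the 11 control barcodes 0.631% (range 0% to 3.37%). At 0.5% or more stood 5 of the 55 cKO barcodes (9.09%) and 8 of the 11 control barcodes (72.7%). The median depths were 3691 UMIs in cKO and 4184 UMIs in control, and none of these barcodes was over 10000 UMIs. The ranges overlapped.

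**Figure D2:**
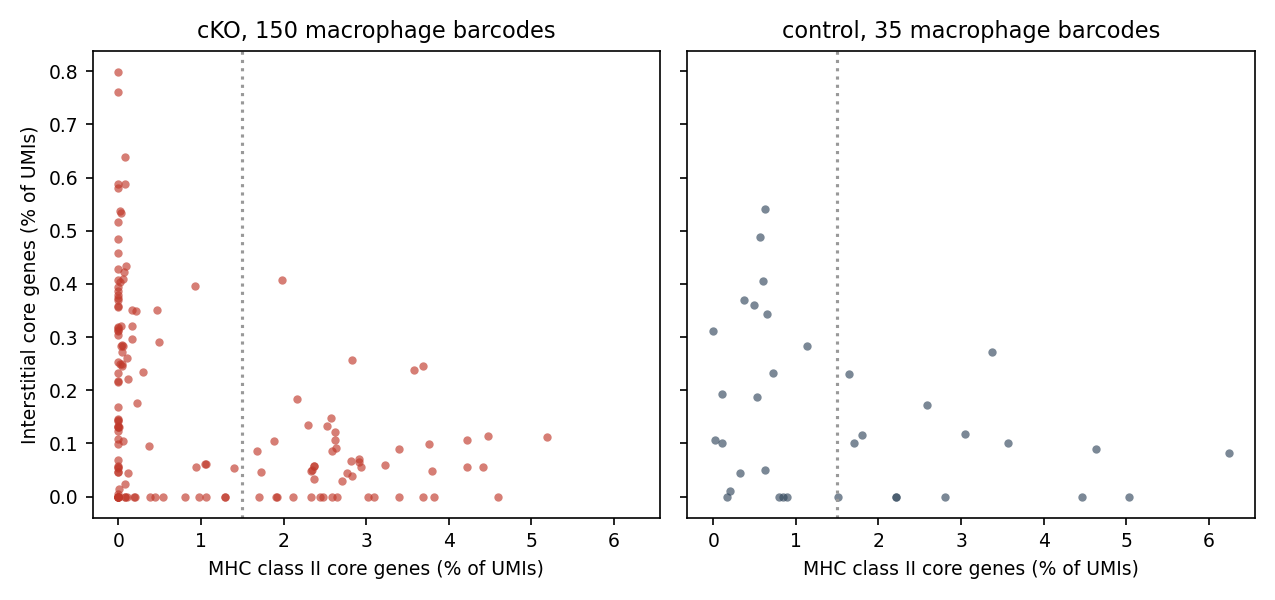
Each point is 1 macrophage barcode, with its percent of UMIs from the MHC class II core genes (horizontal axis) and from the interstitial core genes (vertical axis), cKO left and control right; the dotted line marks 1.5%. In cKO 42 of 150 barcodes have interstitial but no MHC class II core UMIs, against 1 of 35 in control.

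As summed levels, the interstitial-type list differed little. Of 16 measured genes 1 was called higher and 1 lower in cKO, with a median log2 ratio of 0.32, and without the members over 10000 UMIs the median was -0.05 over 15 genes. Selenop, a selenium carrier, stood at 2614 CPM in cKO and 1950 CPM in control (log2 ratio 0.42, and 0.04 without those members). Mrc1 stood at 1288 CPM in cKO and 951 CPM in control (0.44, and 0.00 without them). F13a1, a coagulation factor subunit used as a resident macrophage marker, stood at 1350 CPM in cKO and 1135 CPM in control (0.25, and -0.05 without them). Ccl24, an eotaxin, was the gene called higher (191 CPM in cKO, 78.8 CPM in control), and its log2 ratio was 1.28, and 0.59 without those members. Cd209f, a C-type lectin, was the gene called lower (184 CPM in cKO, 294 CPM in control), with a log2 ratio of -0.67. Without the deep members Cd209f no longer passed the rule (-0.39), and Timd4 was the gene called lower (-0.74, against -0.29 with all members).

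Genes of the inflammatory cytokine and chemokine list were mostly higher in cKO. Of 15 measured cytokine, chemokine and NF-kB feedback genes, 10 were called higher and 2 lower, with a median log2 ratio of 1.31 against 0.10 over all measured genes. Without the members over 10000 UMIs, 9 were called higher and 4 lower, with a median of 0.996. Over all measured genes 18.3% were higher and 15.2% lower. Ccl4 (MIP-1 beta), a chemokine that draws monocytes and T cells, had 172 UMIs (305 CPM) in cKO and 2 UMIs (10.5 CPM) in control. Its log2 ratio was 4.86 (2.98 to 7.92), and 4.23 without the deep members. Ccl4 was found in 40 of 150 cKO barcodes and in 1 of 35 control barcodes, so the difference did not rest on a single cKO barcode.

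Several other genes of the same response were higher. Ccl3, the neighbour of Ccl4 on chromosome 11, had 169 UMIs (299.7 CPM) in cKO and 23 UMIs (121 CPM) in control, a log2 ratio of 1.31 (0.68 to 2.01). Cxcl2, a neutrophil chemokine, had 77 UMIs in 22 cKO barcodes and 2 UMIs in 1 control barcode, a log2 ratio of 3.70 (1.80 to 6.77). Cd83, an activation antigen, had 66 UMIs in cKO and 5 UMIs in control (2.15, 0.86 to 3.82). Without the deep members the log2 ratios were 0.79 for Ccl3, 3.09 for Cxcl2 and 1.55 for Cd83. These genes were close to absent elsewhere: a Ccl4 UMI was found in 0.191% of cKO and 0.195% of control other barcodes, and a Ccl3 UMI in 0.0546% and 0.0315% in cKO and control.

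Further members of the list followed the same direction with fewer UMIs. Ccl12 had 100 UMIs in cKO and 7 in control (log2 ratio 2.27), Tgfb1 53 in cKO and 4 in control (2.16), and the NF-kB inhibitor gene Nfkbia 78 in cKO and 9 in control (1.55). Cd14, a macrophage gene outside this list and the co-receptor for bacterial lipopolysaccharide, had 99 UMIs in cKO and 9 in control (1.89, 0.91 to 3.06). Without the deep members the ratios were 1.62 for Ccl12, 1.498 for Tgfb1, 1.29 for Nfkbia and 1.26 for Cd14. Cxcl10 had 52 UMIs in cKO and none in control, at least 2.55 higher on the log2 scale against a floor of 3 counts in the control sum (1.91 without the deep members), but 1 cKO barcode held 92.3% of them. Tnf passed the rule narrowly (log2 ratio 0.59, -0.29 to 1.58), and did not pass it without the deep members (0.20). Ccl2 did not pass it (0.26).

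Not every chemokine was higher. Ccl8, a monocyte chemokine that marks many resident macrophages, had 631 UMIs (1119 CPM) in cKO and 337 UMIs (1771 CPM) in control, a log2 ratio of -0.66 (-0.86 to -0.47). A UMI of it was found in 64 of 150 cKO and 21 of 35 control barcodes. Ccl7 had 38 UMIs in cKO and 30 in control (log2 ratio -1.23, and -1.86 without the deep members), with 83.3% of the control UMIs in 1 barcode. Ccl6 and Cxcl16 were called lower without the deep members alone, at -1.09 and -0.68.

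**Figure D3:**
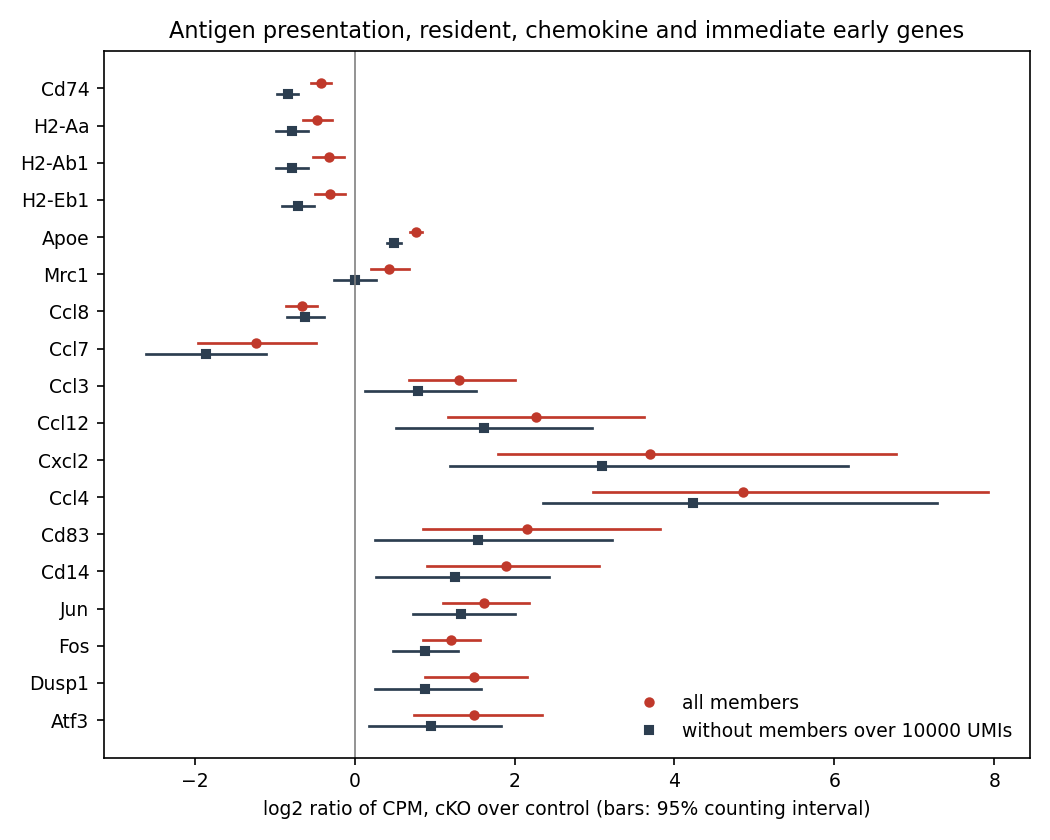
Log2 ratio of CPM, cKO over control (horizontal axis), with 95% Poisson intervals, for antigen presentation, resident, chemokine and immediate early genes; circles are all members and squares leave out members over 10000 UMIs. Ccl4 lies at 4.86 and Cd74 at -0.42, and Mrc1 moves to 0.00 without those members.

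Immediate early genes, whose products are transcription factors and phosphatases made within minutes of a stimulus or of tissue dissociation, were also higher. Of 16 measured immediate early and heat shock genes 11 were called higher in cKO and none lower, with a median log2 ratio of 1.16. Without the members over 10000 UMIs, 11 were called higher and 1 lower (median 0.88). All measured genes had 18.3% higher and 15.2% lower, and 21.7% higher and 10.2% lower without those members. Jun had 310 UMIs (550 CPM) in cKO and 34 UMIs (179 CPM) in control, a log2 ratio of 1.62 (1.11 to 2.18). Fos stood at 933 CPM in cKO and 405 CPM in control (1.20, 0.86 to 1.57). Egr1 stood at 213 CPM in cKO and 237 CPM in control and did not pass the rule, but was called lower without the deep members (-0.63).

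This group differed outside macrophages too. In all other kept barcodes the log2 ratio of cKO over control was 2.01 for Jun and 2.65 for Fos, at far lower levels. The part of library-wide handling in the macrophage values was not tested. The immediate early and heat shock list had a median log2 ratio of 1.85 in other barcodes, against 1.16 in macrophages. The cytokine and chemokine list was also higher in cKO in other barcodes, with a median of 0.44, against 1.31 in macrophages. Ccl4 and Ccl3 of that list went the other way there, at -0.27 for Ccl4 and -0.98 for Ccl3. Both genes were close to absent in those barcodes.

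Within cKO, Ccl4, Ccl3, Cd83, Cd14, Jun and Fos stood at higher CPM in the MHC class II-high barcodes than in those low in MHC class II, while Tnf did not (103 CPM in the high class, 110 CPM under 0.1%). The 51 cKO and 15 control barcodes at 1.5% or more had median depths of 1941 UMIs in cKO and 1990 UMIs in control. Within them the MHC class II genes themselves were alike, with Cd74 at 12720 CPM in cKO and 12327 CPM in control. Ccl4 stood there at 1160 CPM in cKO (27 of 51 barcodes) and 47.0 CPM in control (1 of 15 barcodes), and at 14.1 CPM in the 71 cKO barcodes under 0.1%. Jun stood at 928 CPM in MHC class II-high cKO, 235 CPM in MHC class II-high control and 446 CPM in the cKO barcodes under 0.1%. Only 2 control barcodes lay under 0.1%, so that class was not compared between genotypes.

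Several resident macrophage genes took the opposite place within cKO. Selenop stood at 430 CPM in MHC class II-high cKO and 1647 CPM in MHC class II-high control, and at 3404 CPM in cKO barcodes under 0.1%. F13a1 had 7 UMIs in 3 of 51 MHC class II-high cKO barcodes and 51 UMIs in 6 of 15 MHC class II-high control barcodes. Ccl8 had 1 UMI in the 51 MHC class II-high cKO barcodes, and 85 UMIs in 4 of the 15 control barcodes. In the cKO library alone, Ccl8 was found in 51 of the 71 barcodes under 0.1% of MHC class II.

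Genes of the monocyte list did not move together across these classes. Ccr2, the receptor with which monocytes leave the marrow, had 21 UMIs in 11 of 51 cKO barcodes and 9 UMIs in 2 of 15 control barcodes, and none in the cKO barcodes under 0.1%. Fn1 (fibronectin) went the other way in cKO, with 2 UMIs in the high class and 176 UMIs in the 99 barcodes under 1.5%. Most of these cKO Fn1 UMIs lay in 1 barcode. In control Fn1 had 22 UMIs in the high class, all in 1 barcode, and 5 UMIs under 1.5%. A Fn1 UMI was found in 5.33% of cKO and 8.57% of control members, and in 8.89% of cKO and 3.59% of control other barcodes. Il1b, an inflammatory cytokine outside the monocyte list, had 32 UMIs in the high class of cKO and 7 UMIs in that of control. Of the whole monocyte list 9 of 10 genes had a UMI in members, at 433 CPM in cKO and 315 CPM in control, and Fn1 gave 178 of the 244 UMIs in cKO and 27 of the 60 in control. The part of monocytes in the differences above was not tested.

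**Figure D4:**
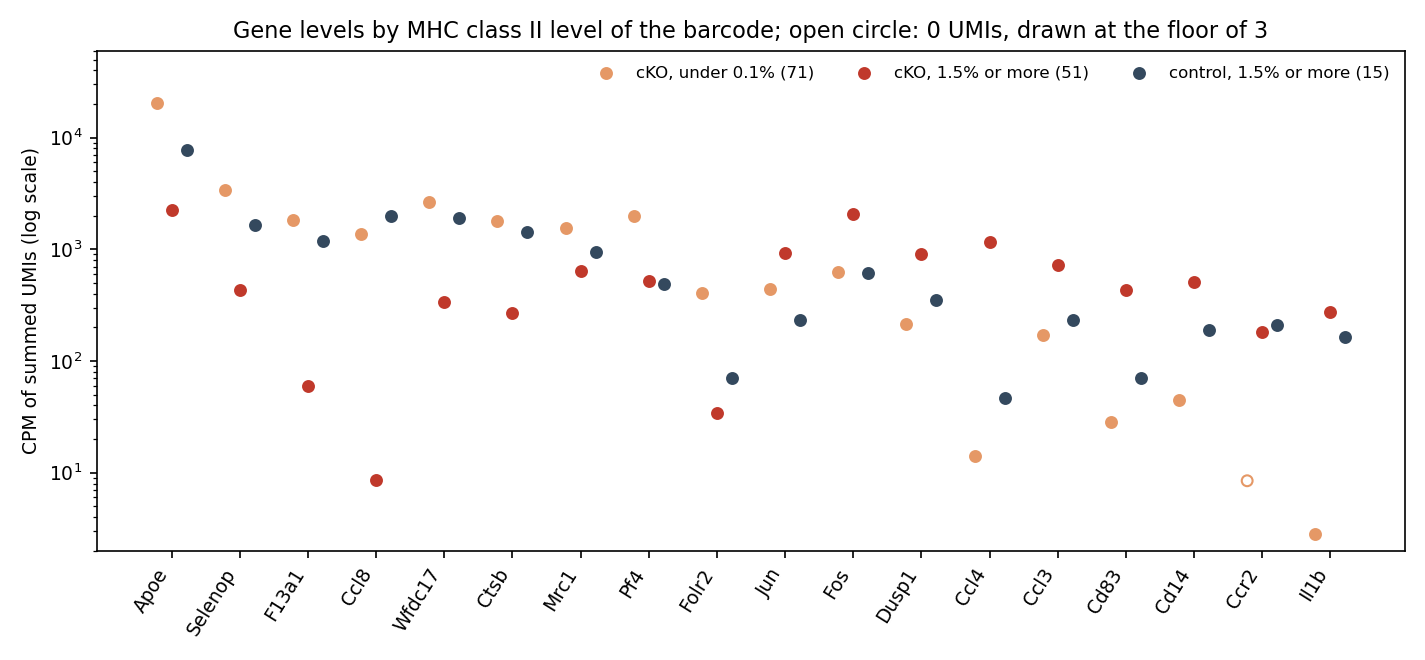
CPM of summed UMIs on a log scale for selected genes in macrophage barcodes at 1.5% or more MHC class II core UMIs (cKO, 51 barcodes; control, 15 barcodes) and under 0.1% (cKO, 71 barcodes); open circles have no UMI and stand at the floor of 3 counts. Ccl4 is at 1160 CPM in MHC class II-high cKO barcodes and 47.0 CPM in MHC class II-high control barcodes, and Ccl8 at 8.59 and 2000 CPM in cKO and control.

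Macrophage-enriched genes were those with at least 4 times the CPM of other barcodes in both libraries, with the rule genes left out. Of 695 such genes 27.2% were called higher in cKO (189 genes) and 3.74% lower (26 genes), with a median log2 ratio of 0.28. Among all measured genes 18.3% were called higher and 15.2% lower. The surplus of higher enriched genes depended on the deep members: without them 651 were measured, 12.3% were higher and 14.4% lower, and the median was -0.10. All measured genes then had 21.7% higher and 10.2% lower. These shares over all measured genes also stand beside the list counts that follow. Elongating spermatid genes stood at 18546 CPM in cKO and 46289 CPM in control macrophages summed over 12 genes, and their part was not tested. Those sums include deep members with up to 18.4% of their UMIs from these genes in cKO and 19.9% in control. The median share per member was 1.57% in cKO and 2.23% in control.

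Apoe, a lipid carrier, was called higher in cKO with all members and stayed above 0, but short of the rule, without the deep members. It stood at 16113 CPM in cKO and 9457 CPM in control, a log2 ratio of 0.77 (0.70 to 0.84), and 0.49 without the members over 10000 UMIs. Per barcode its share of UMIs had a median of 1.17% in cKO (range 0% to 6.18%) and 0.958% in control (range 0% to 3.14%), so the ranges overlapped widely. Within the MHC class II-high class the direction turned, with 2269 CPM in cKO and 7716 CPM in control. Apoe was also found in other barcodes of both libraries, where its log2 ratio was 0.95.

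Of the other lipid and cholesterol genes, Soat1, which esterifies cholesterol, had 62 UMIs in cKO and 7 in control (log2 ratio 1.58, 0.45 to 2.95). Apoe and Soat1 were the 2 of 9 measured genes called higher, and none was called lower. Abca1, the cholesterol exporter, had a log2 ratio of 0.27 (-0.12 to 0.67), which turned to -0.27 without the members over 10000 UMIs. Without them the list's median was -0.26, against 0.27 with them, and of 8 measured genes 1 was called higher (Soat1) and 2 lower.

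Receptors and bridges for dying cells included 4 genes called higher of 12 measured, none lower, with a median log2 ratio of 0.39. Lrp1, a receptor for cell remnants, had 91 UMIs in cKO and 13 in control (1.24, 0.39 to 2.20), and 1.07 without the deep members. Trem2, a lipid-sensing receptor, stood at 365 CPM in cKO and 231 CPM in control (0.66, 0.18 to 1.16), and its call was lost without them (0.32). Mertk, the main receptor for apoptotic cells in many tissue macrophages, had a log2 ratio of -0.13 (-0.68 to 0.45). Without the deep members 1 of 10 was called higher and 1 lower, with a median of -0.07. All measured genes had 18.3% higher and 15.2% lower, and 21.7% higher and 10.2% lower without those members.

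Lysosomal genes were close to even. Of 21 measured, 3 were called higher and none lower (median 0.24), and without the deep members 1 was higher and none lower (median -0.09). All measured genes had 18.3% higher and 15.2% lower, and 21.7% higher and 10.2% lower without those members. Ctsl, the protease cathepsin L, stood at 372 CPM in cKO and 194 CPM in control (log2 ratio 0.94, and 0.95 without those members). Its call was lost with the mitochondrial limit at 5% (-0.016) and in members with 5 or more MHC class II core UMIs alone (0.29). Ctsb, cathepsin B, stood at 1417 CPM in cKO and 1188 CPM in control, and its log2 ratio turned to -0.035 without the deep members.

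Iron and heme genes had a single member above the rest. Slc40a1, the iron exporter ferroportin, had 169 UMIs in cKO and 24 in control (log2 ratio 1.25, 0.63 to 1.93), and was the 1 called of 7 measured iron and heme genes. Its ratio was 0.72 without the deep members, and turned to -0.20 in members with 5 or more MHC class II core UMIs alone. Fth1 and Ftl1, the ferritin chains, had log2 ratios of 0.30 and 0.07, and Ftl1 had -0.28 without the deep members.

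Among the 26 measured macrophage genes of the core list, 6 were called higher and 3 lower in cKO (median 0.15), and without the deep members 1 was higher and 5 lower of 25 (median -0.20). Lower ones included Mpeg1, a pore-forming protein of phagocytes, with 29 UMIs in cKO and 25 in control (log2 ratio -1.35, -2.18 to -0.52, and -2.05 on fewer than 50 UMIs without the deep members). Cd53, a tetraspanin, had 73 UMIs in cKO and 41 in control (-0.74), and Pld4, a nuclease of the endolysosome, 55 in cKO and 30 in control (-0.69). Aif1 (IBA1) had a log2 ratio of -0.56, and -0.74 without the deep members, but was also found in 60.6% of cKO and 61.6% of control other barcodes.

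Genes of the CSF1 axis and macrophage transcription factors had 5 of 9 measured called higher and none lower (median 0.73), and 2 of 8 higher without the deep members (median 0.29). All measured genes had 18.3% higher and 15.2% lower, and 21.7% higher and 10.2% lower without those members. Spi1 (PU.1), the lineage factor, had 85 UMIs in cKO and 16 in control (log2 ratio 0.84), and lost its call without the deep members (0.34). Of 9 measured genes of ITAM and Fc receptor signalling, 2 were called higher and 1 lower (median 0.19), and without the deep members none of 7 was higher and 1 was lower (median -0.17). Of 12 phagocyte oxidase and actin genes 1 was higher and none lower (median 0.08), and without the deep members none was higher and 2 were lower (median -0.42). Retnla, an alternative activation gene, was called lower (8 UMIs in cKO, 60 in control), but all its UMIs lay in 1 barcode of each library.

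**Figure D5:**
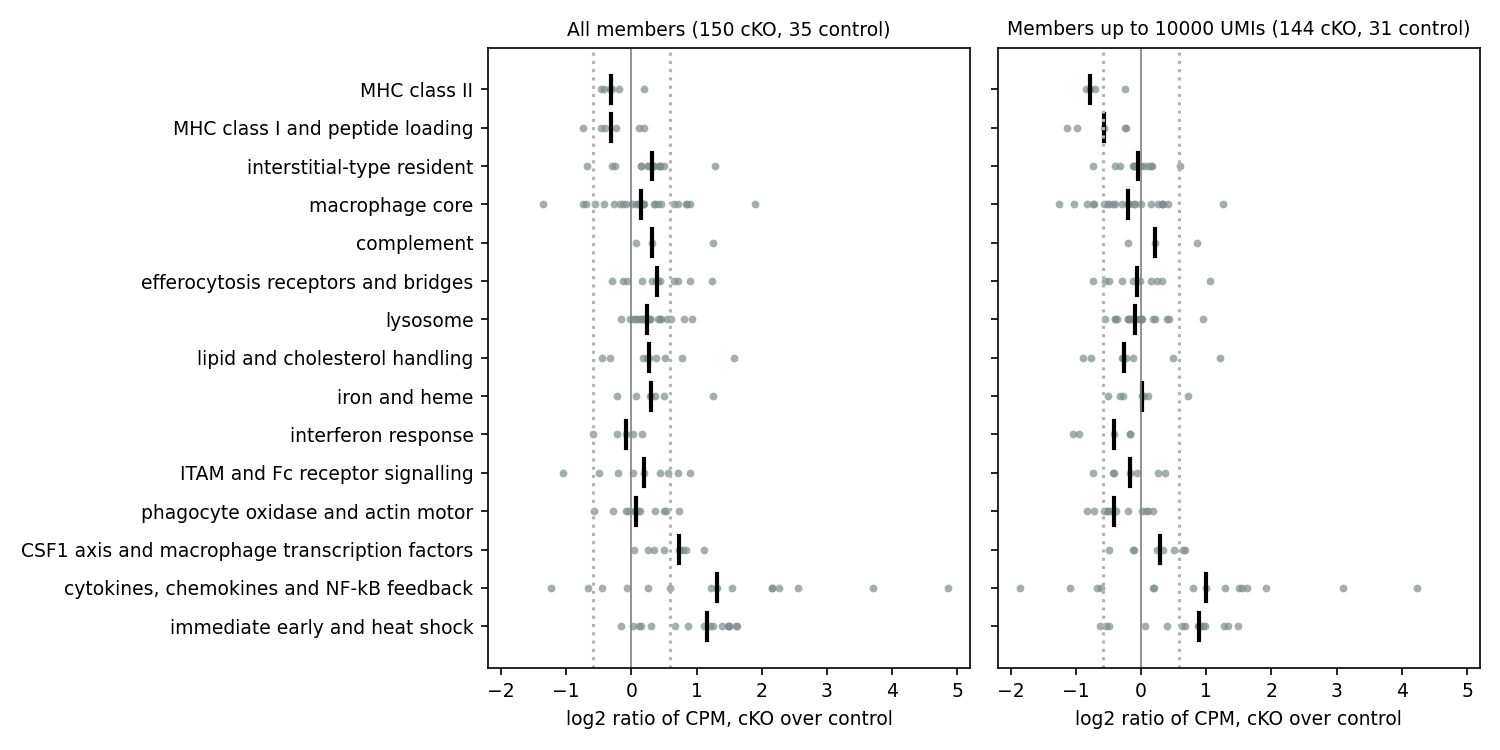
Log2 ratios of CPM, cKO over control, of the measured genes of each macrophage gene list (1 point per gene, black bar the median, dotted lines 1.5-fold; Cxcl10 stands at its bound), for all members left and without members over 10000 UMIs right. With all members, cytokine and chemokine genes have a median of 1.31 and immediate early and heat shock genes 1.16, while MHC class II genes have a median of -0.32.

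Dot1l itself was too low to describe, with 14 UMIs (24.8 CPM) in cKO and 7 UMIs (36.8 CPM) in control, a log2 ratio of -0.57 (-1.37 without the deep members). The deleted part of the gene is not stated, so 3′ reads do not check the genotype. Of the genes of DOT1L partners only Mllt10 was measured, with a log2 ratio of 0.31 (-0.11 to 0.74) that turned to -0.15 without the deep members, and 1 barcode held 57.4% of its control UMIs.

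The genes with the largest ratios over all measured genes were mostly no macrophage genes. Higher in cKO were the Leydig cell genes Cyp11a1 (log2 ratio 4.79), Cyp17a1 (4.16) and Insl3 (3.68), which make or accompany testosterone. The Leydig list of 10 genes stood at 1656 CPM in cKO and 184 CPM in control macrophages, and 6 cKO and no control barcodes with 0.5% or more of their UMIs from it held 83.6% of the cKO Leydig UMIs. Without the deep members Cyp11a1, Cyp17a1 and Insl3 had log2 ratios of 2.63, 2.996 and 1.24 on fewer than 50 UMIs each. Scand1 (5.48) and Tssk6 (4.05) differed alike in other barcodes, by 5.15 and 3.95, and had 4.55 and 4.83 in macrophages without the deep members. Among the lowest, Pcdh9 (-2.60), Tex15 (-2.60), Sdk1 (-2.65) and Auts2 (-2.25) had 94.9%, 80.9%, 79.2% and 73.0% of their control UMIs in 1 barcode, and log2 ratios of -3.80, -0.46, -0.99 and -1.44 on fewer than 50 UMIs each without the deep members.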

How the data were processed

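The authors deposited gene-by-barcode matrices of UMI counts from 10x 3′ libraries. Per the file headers, Cell Ranger 7.0.0 wrote them, and the submitters' processing notes name mm10 and Seurat 4.1.0. The members and gene lists were chosen with earlier results of these data known. UMIs of member barcodes were summed per library (n = 1 each) and scaled to CPM with numpy 2.4.6, scipy 1.17.1 and pandas 2.3.3. A log2 ratio carries an exact conditional Poisson 95% interval and a share an exact Clopper-Pearson one. Gene coordinates are those of GENCODE for GRCm38. The log2 ratio calculation was tested on simulated data. Genes were named by rule: the 7 rule genes, the 20 most enriched, the 12 highest and 12 lowest ratios among enriched and among all genes, and of each list the 4 most abundant and 2 largest ratios, of which the text gives part. Other genes in the text, among them Pld4, Ccr2 and Il1b, and the MHC class II classes were chosen after values were seen. Doublets were kept: Scrublet (scanpy 1.11.5) marked 0 of 18451 cKO and 1 of 15898 control barcodes, so it had not worked. Alternatives changed the member rule, scaling, gene filter, weighting and free RNA. Some genes are not reported here.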

Additional observations from a re-analysis of the deposited data

Results flagged for a closer look

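Outside the kept barcodes, 17 of 2150 cKO barcodes over 10% mitochondrial UMIs met the marker rule (0.791%), against 4 of 1510 control barcodes (0.265%). At least 5 MHC class II core UMIs were found in 8 of the 17 cKO and 3 of the 4 control barcodes.

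Some log2 ratios of cKO over control in macrophages had the opposite sign in other barcodes; the difference was not tested. Ccl3 had 1.31 in macrophages and -0.98 in other barcodes. Psmb8 had -0.74 in macrophages and 0.72 in others, and Mpeg1 -1.35 and 2.09 in macrophages and others. Gsn had -1.57 in macrophages and 1.13 in others, and Pik3r1 -1.22 and 0.88. Cxcl9 had -3.46 in macrophages and 0.86 in others, with 74.6% of the control macrophage UMIs in 1 barcode. Pbx3 had -2.04 and 1.16, Sdk1 -2.65 and 0.92, and Auts2 -2.25 and 0.83, in macrophages and others. Without members over 10000 UMIs the macrophage log2 ratios were -0.59 for Gsn (on fewer than 50 UMIs) and -4.06 for Cxcl9.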

How the results depend on the processing

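Of 2128 gene ratios recomputed for 194 genes, 14 changed sign for a gene first called past 1.5-fold. Of the rest, 1842 stayed within their counting interval and 272 moved. Sign changes of genes short of 1.5-fold are counted among these. Alternatives that leave out deep, Leydig-bearing or MHC class II-low members, and all member settings for shares, were chosen after seeing the data. With mitochondrial share at most 5% (73 cKO and 19 control members), macrophages made 0.488% of cKO and 0.136% of control barcodes, the all-gene median was 0.14, 343 genes were higher and 288 lower, and the enriched, interstitial and MHC class II medians were 0.42, 0.50 and 0.27, the last with its sign changed. MHC class II core UMIs were then in 76.7% of cKO (1 or more), 63.0% of cKO (5 or more) and 100% of control barcodes (1 or more), and interstitial core alone in 20.5% of cKO and 0% of control; Auts2 turned to 2.04, Camkmt to 0.30, Agt to -0.70, Insl3 to -0.87 and Ctsl to -0.016.

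At 0.5% of UMIs from the 7 genes, 230 genes were lower, and the enriched and MHC class II medians were 0.13 and -0.91; with 5 of the 7 genes the MHC class II median was -0.80. Median-of-ratios scaling gave medians of 0.00 over all and 0.19 over enriched genes. With a minimum of 20 UMIs, 1490 genes were higher and 1208 lower (median 0.0666), and with 1 UMI 2918 were higher and 2921 lower (median 0.0175). Weighting barcodes equally gave medians of 0.0658 for enriched, 0.13 for interstitial and -0.56 for MHC class II genes, and -2.12 for Dot1l. Subtracting the free RNA estimate, which includes spermatid UMIs of deep members, gave 871 genes higher and an enriched median of -0.013. The interstitial median was then 0.0222, the MHC class II one -0.62 and the lysosomal one -0.048. Members with a low germ cell share gave 0.0530 over all, 0.0384 for enriched, 0.0178 for interstitial and -0.55 for MHC class II genes, and Ccl7 turned to 0.92.

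Without members over 10000 UMIs, 210 genes were lower, and medians were -0.10 for enriched, -0.0535 for interstitial, -0.089 for lysosomal and -0.78 for MHC class II genes. Without Leydig-bearing members Agt turned to -0.44 and Vcam1 to -0.86. In members with 5 or more MHC class II core UMIs alone, 233 genes were higher and 216 lower (median -0.0167), with medians of 0.17 for enriched, -0.83 for interstitial, -0.14 for lysosomal and -0.028 for CSF1 axis genes, and Apoe turned to -0.18, Ccl24 to -0.40, Fn1 to -0.53, Klf4 to -0.028, Pros1 to -0.57 and Slc40a1 to -0.20. Thinned to 1000 UMIs, cKO shares were 58.6% for 1 or more MHC class II core UMIs, 60.0% for interstitial core, 30.0% for MHC class II alone and 28.6% for both. The cause of these moves was not tested. Leaving out marked doublets was not run, since the caller marked no member, and the exclusion of a replicate needs more than 1 library. Counts of 35 control barcodes limit every control value.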

Other observations

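Ighm, the heavy chain of IgM, was found in macrophages of both libraries. Of the other B cell genes, Cd79a and Ms4a1 were at 0, Cd79b had 3 UMIs in cKO and 2 in control, Ighd 3 in cKO and none in control, Pax5 2 in cKO and 3 in control, and Ebf1 3 in cKO and 2 in control. Cd79b stood at 5.32 CPM in cKO and 10.5 CPM in control macrophages, against 0.0134 and 0.0395 CPM in other barcodes of cKO and control. Ighm had 83 UMIs in 33.3% of cKO barcodes and 33 UMIs in 45.7% of control barcodes, a log2 ratio of -0.24. In other barcodes it was found in 0.0765% in cKO and 0.0189% in control. In cKO, 41 of the 99 barcodes under 1.5% MHC class II core UMIs and 9 of the 51 above had an Ighm UMI. The classes differed in depth, with a median of 1941 UMIs at 1.5% or more and medians from 2272 to 4417.5 UMIs in the lower classes. On the CPM scale, the cKO log2 ratio of the class at 1.5% or more over that under 0.1% was -0.72 (-1.80 to 0.23).

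Fn1, fibronectin, had 178 UMIs in cKO and 27 in control, but 1 barcode held 55.6% of the cKO and 1 held 81.5% of the control UMIs.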
